A study of Mus musculus with 15 samples.

Results

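Genes of protein folding, protein disposal and stress signalling in the endoplasmic reticulum were followed through diet-induced obesity and weight loss in mouse fat. The list held 36 names, taken as given for this pathway and chosen by function, with earlier results of these data known. They resolved to 35 genes because Chop is an alias of Ddit3. All 35 were among the 35794 Entrez gene IDs of the count table, and 33 passed the filter on low counts that left 15208 genes for testing. The endoplasmic reticulum is the compartment in which secreted and membrane proteins enter, fold and receive disulfide bonds and sugars. When unfolded protein accumulates there, the sensors IRE1 (gene Ern1), PERK (Eif2ak3) and ATF6 start the unfolded protein response, which raises chaperones and disposal factors through XBP1 and ATF6 and, through PERK and the transcription factor ATF4, slows translation and raises genes of amino acid supply. Fat cells secrete large amounts of adipokines and lipases, and their secretory pathway has long been studied in obesity.

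The fat was the perigonadal pad of C57BL/6 mice, the depot beside the gonads, and polyadenylated RNA purified over a CsCl gradient was sequenced. Lean mice ate chow throughout, and obese mice ate a 60% high-fat diet, started when they were 8 weeks old. Weight loss mice had 5 weeks of the same high-fat diet and then 1 week of chow, and the labels put every mouse at 14 weeks of age. For the lean and obese groups too, the labels give 5 weeks on the diet. The labels name no transgene, drug or other treatment in any group. There were 5 lean, 5 obese and 4 weight loss libraries with 13924770 to 33807887 counts each, and a further weight loss library with 230 counts entered no comparison. The design text calls the samples independent, but no label names the animals, so p-values measure the spread between these samples.

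Levels are CPM, which relate a count to the TMM-adjusted total of its library. Each log2 value is a fold change with its standard error, and its p comes from the quasi-likelihood test of edgeR with Benjamini-Hochberg adjustment over all 15208 genes, written as edgeR adjusted p. A gene is said to rise or fall where that value was at most 0.05. In bulk tissue, fewer cells of a type and less RNA per cell cannot be told apart.

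The adipocyte markers Adipoq, Plin1, Cidec, Fabp4, Lipe and Pnpla2 summed to between 15082 and 21538 CPM, so each of the 14 libraries held RNA of fat cells. Transcripts of the epididymis, the sperm duct beside this fat pad, stood apart between libraries. The sum over 23 epididymal markers was 8900 CPM in obese replicate 2, 6854 CPM in obese replicate 5, 3559 CPM in lean replicate 1 and 3028 CPM in obese replicate 4. Lean replicate 4 and obese replicate 3 held 544 and 475 CPM, and the other 8 libraries held between 0.79 and 64.6 CPM. The mean of log2(CPM + 0.5) over the 23 markers was 2.17 in obese replicate 3 and -0.33 in lean replicate 4. The latter lay within the -0.92 to -0.20 of the other 8 libraries. Of the obese libraries only replicate 1, at -0.52, lay in that range. The epididymis is itself a secretory tissue. Counts over the list and values of its genes that rose or fell are therefore also given without the 4 libraries at 3028 CPM or more. Results for the wider lists of the pathway and for markers of other cells are given with all 14 libraries only.

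The promoters of several of these genes carry the sequence elements by which the unfolded protein response is known to act, and these are shown first because they tie the list to that pathway without using expression. Promoters from 250 bases before to 50 bases after the start site were taken from RefSeq on GRCm38.p6, the build of mm10, and 30 of the 35 genes had one. Both strands were searched for the endoplasmic reticulum stress response element (ERSE), which is CCAAT, any 9 bases, then CCACG, the site of NF-Y and ATF6. It stood in the promoters of 9 genes, namely Hspa5, Hsp90b1, Pdia6, Calr, Canx, Dnajc3, Creld2, Syvn1 and Derl3, and in 0.119% of all 32851 promoters. Some of these genes are the ones from which the element was first described, so its presence is a description of the list. The following stretches show it in 3 genes that rose in obese fat, with each element in capitals, 5′ to 3′ on the strand of the gene.
Hspa5: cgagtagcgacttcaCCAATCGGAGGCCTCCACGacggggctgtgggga
Pdia6: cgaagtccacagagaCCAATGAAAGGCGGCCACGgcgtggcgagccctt
Hsp90b1: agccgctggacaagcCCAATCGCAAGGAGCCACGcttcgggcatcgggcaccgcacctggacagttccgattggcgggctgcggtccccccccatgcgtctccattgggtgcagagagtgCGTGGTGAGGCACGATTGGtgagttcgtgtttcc
The Hspa5 stretch lies at chr2:34772010-34772058 (plus strand) and the Pdia6 stretch at chr12:17266476-17266524 (plus strand). The Hsp90b1 stretch lies at chr10:86705518-86705671 (minus strand) and holds 2 elements in opposite orientations, so the second reads as the reverse complement.

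The same element stood in 6 genes that did not pass the test in obese fat, and 3 of them are printed here to set them beside those that did.
Calr: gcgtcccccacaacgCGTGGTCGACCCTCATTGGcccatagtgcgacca
Canx: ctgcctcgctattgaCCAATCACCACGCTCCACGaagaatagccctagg
Syvn1: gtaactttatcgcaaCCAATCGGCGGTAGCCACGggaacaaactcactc
They lie at chr8:84847060-84847108 (minus strand) for Calr, chr11:50325785-50325833 (minus strand) for Canx and chr19:6046517-6046565 (plus strand) for Syvn1. The element in Calr is in the reverse orientation. The letters were present both in genes that rose and in genes that did not. Among tested genes with a promoter in the table, 3 of 9 with the element rose and 5 of 19 without it.

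A shorter form, ERSE-II, which is ATTGG, any 1 base, then CCACG, stood in Dnajb11 and Herpud1 and in 0.037% of all promoters. The unfolded protein response element bound by XBP1, TGACG followed directly by TGG, stood in none of the 30 genes and in 0.676% of all promoters. The core of the element bound by ATF4 with C/EBP proteins, TGATG, any 1 base, then AA, stood in Asns, Chac1, Herpud1 and Trib3 and in 3.97% of all promoters. It is shown for Asns, the gene of the list that fell in obese fat, and for Chac1, with the core in capitals.
Asns: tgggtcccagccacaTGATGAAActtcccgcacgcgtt
Chac1: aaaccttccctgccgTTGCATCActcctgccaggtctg
The Asns stretch lies at chr6:7693210-7693247 (minus strand) and ends at the base before the start site, and the Chac1 stretch lies at chr2:119351034-119351071 (plus strand) and carries the core in reverse. Hyou1, Manf, Atf6, Derl1 and Sec61a1 were not covered. The plot of elements along the promoters gives their positions.

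**Figure D1:**
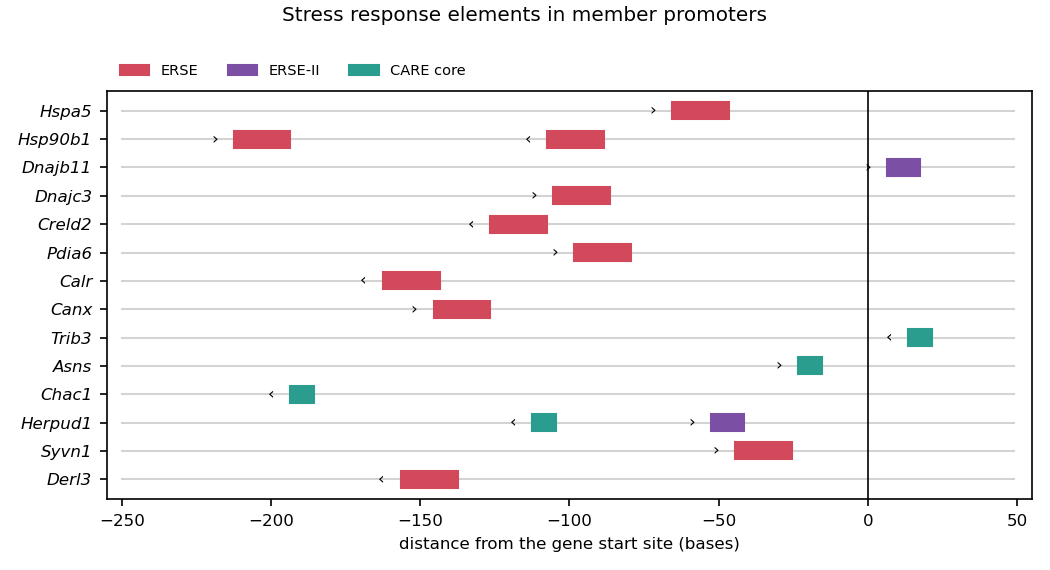
Stress response elements in the promoters of 14 genes of the list, drawn to scale from 250 bases before to 50 bases after the start site (vertical line); the small arrow beside each box gives the orientation. Red boxes are ERSE, purple boxes ERSE-II and green boxes the ATF4 core; all but those of Dnajb11 and Trib3 lie upstream of the start site.

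Per length of exon, the genes of the list spanned 3 orders of magnitude. The lectin chaperone Calr was the most abundant with a mean of 433 CPM per kilobase over the 14 libraries, followed by Hsp90b1 at 248, P4hb at 182, Pdia3 at 155 and Hspa5 at 150.2. The sensors were at the other end, with Atf6 at 7.51, Eif2ak3 at 2.95 and Ern1 at 0.320 CPM per kilobase. Xbp1, the transcription factor made active by IRE1, and Selenos, a disposal factor of the reticulum membrane, were listed at 0 counts in every library and could not be tested. Other genes were listed at 0 throughout as well, among them Msrb1, Ighm and Igkc, so these zeros say only how the table lists the genes.

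The first comparison asked how obese fat differed from lean fat. Of the 33 tested genes 8 rose in obese fat, among them the 2 main luminal chaperones Hspa5 and Hsp90b1 and 3 of 4 protein disulfide isomerases, and 1 gene, Asns, fell. None of the 3 sensors and neither tested stress transcription factor passed the test. Over all genes tested, 5.86% rose and 3.85% fell (9.71% in either direction), against 8 and 1 of 33 here. The fold change was positive for 24 and negative for 9 of the 33, with a median log2 value of 0.27 beside -0.02 over all genes. Obese and lean libraries did not overlap for 7 of the 33 (21.2%), and for 10.3% of all genes tested. With the 4 libraries richest in epididymal RNA left out, edgeR called 0 of the 33, and 125 genes in all. Of the 33 values 21 were then positive, with a median of 0.19 beside -0.02 over all genes. The plot of fold changes by role gives all 33 in each comparison.

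**Figure D2:**
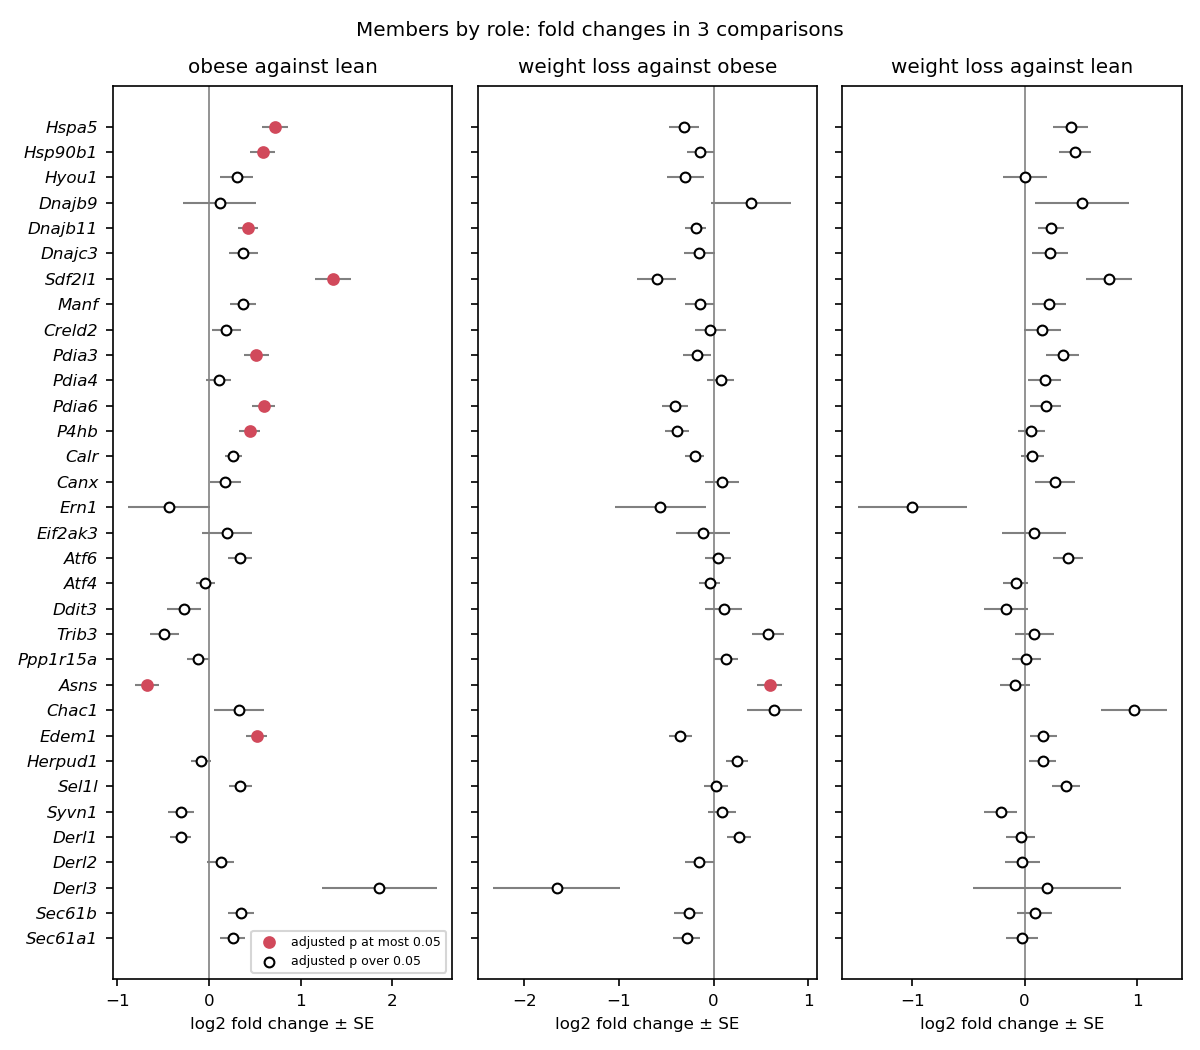
Log2 fold changes ± standard error of the 33 tested genes in 3 comparisons, ordered by role from chaperones at the top to the translocon at the bottom; each panel has its own horizontal scale. Filled points had an edgeR adjusted p of at most 0.05: 9 in obese against lean, 1 in weight loss against obese and none in weight loss against lean.

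Of the 9 luminal chaperones and co-chaperones, 4 rose and none fell. Hspa5 encodes BiP, the Hsp70 chaperone of the lumen that also holds the sensors inactive. Hspa5 stood at 493, 469, 461, 383 and 320.0 CPM in lean replicates 1 to 5, 628, 659, 689.9, 932 and 599 CPM in obese replicates 1 to 5, and 626, 485, 592 and 557 CPM in weight loss replicates 1 to 4. Every obese library lay above every lean library, with obese replicate 4 well above the rest of its group. The mean went from 425 ± 71.8 CPM (SD, n = 5) to 702 ± 133 CPM (SD, n = 5), 1.65-fold or a log2 value of 0.72 ± 0.15 (edgeR adjusted p = 0.00698, two-sided p = 0.00794 by an exact permutation test, the lowest that 252 arrangements of the libraries can give). The gene overlaps Rabepk, and since the counting is not stated to use strand, reads of the pair cannot be told apart where they overlap.

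Sdf2l1, a partner of BiP that keeps misfolded protein soluble, changed by the most among the genes that rose. Sdf2l1 stood at 10.8, 8.66, 12.5, 8.18 and 6.45 CPM in lean replicates 1 to 5, 17.2, 23.1, 25.1, 29.2 and 24.8 CPM in obese replicates 1 to 5, and 15.6, 11.9, 18.2 and 17.2 CPM in weight loss replicates 1 to 4. The lowest obese library lay above the highest lean library, and the weight loss libraries lay between the lean and obese means, the lowest of them inside the lean range. It rose 2.55-fold in obese fat, from 9.32 ± 2.36 CPM (SD, n = 5) to 23.9 ± 4.38 CPM (SD, n = 5), a log2 value of 1.35 ± 0.20 (edgeR adjusted p = 0.00078, exact permutation p = 0.00794).

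Hsp90b1 encodes GRP94, the Hsp90 chaperone of the lumen. Hsp90b1 stood at 666, 509, 592, 547 and 412 CPM in lean replicates 1 to 5, 837, 851, 827, 923 and 656 CPM in obese replicates 1 to 5, and 827, 621, 788 and 734 CPM in weight loss replicates 1 to 4. Obese replicate 5, the lowest of its group, fell just under lean replicate 1, and the other 4 obese libraries lay above every lean library. Its log2 change was 0.59 ± 0.13, 1.5-fold (edgeR adjusted p = 0.0146, exact permutation p = 0.0159).

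Dnajb11 encodes ERdj3, a J-domain partner of BiP. Dnajb11 stood at 79.6, 78.0, 97.7, 76.9 and 73.0 CPM in lean replicates 1 to 5, 97.1, 105, 113, 131 and 98.1 CPM in obese replicates 1 to 5, and 97.3, 88.8, 97.5 and 97.9 CPM in weight loss replicates 1 to 4. The groups met in 1 place: lean replicate 3 lay just above obese replicate 1. Its log2 change was 0.42 ± 0.11 (edgeR adjusted p = 0.0242, exact permutation p = 0.0159). The other 5 of this role had positive values but did not pass, with edgeR adjusted p between 0.118 and 0.894.

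Dnajc3, a J-domain co-chaperone also known as an inhibitor of PERK, stood at 70.8 to 137 CPM in lean and 116 to 148 CPM in obese libraries (log2 0.37 ± 0.16). Manf, a small secreted protein that binds BiP, stood at 122 to 161 CPM in lean and 125 to 224 CPM in obese libraries (log2 0.37 ± 0.14). Hyou1, the large Hsp70-like protein that exchanges the nucleotide of BiP, stood at 32.8 to 62.2 CPM in lean and 48.1 to 66.2 CPM in obese libraries (log2 0.30 ± 0.18). Creld2, a secreted protein with EGF-like repeats known as a target of the stress response, stood at 36.7 to 55.5 CPM in lean and 37.5 to 64.3 CPM in obese libraries (log2 0.19 ± 0.15). Dnajb9, which encodes ERdj4, a J-domain protein that restrains IRE1, varied most within groups, with 8.58 to 31.8 CPM in lean and 12.3 to 26.3 CPM in obese libraries (log2 0.12 ± 0.40). Obese and lean ranges overlapped for all 5 of these genes.

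Of the 4 protein disulfide isomerases, which form and shuffle disulfide bonds, 3 rose. Pdia6 stood at 249, 273, 266, 209 and 209 CPM in lean replicates 1 to 5, 276, 349, 356, 437 and 403 CPM in obese replicates 1 to 5, and 264, 251, 299 and 283 CPM in weight loss replicates 1 to 4. All obese libraries lay above all lean libraries, though obese replicate 1 did so by little. Its log2 change was 0.60 ± 0.13, 1.51-fold (edgeR adjusted p = 0.00998, exact permutation p = 0.00794). P4hb, which is also the beta subunit of the collagen prolyl hydroxylase, stood at 498, 518, 429, 464 and 376 CPM in lean replicates 1 to 5, 541, 593, 618, 619 and 738 CPM in obese replicates 1 to 5, and 498, 431, 439 and 536 CPM in weight loss replicates 1 to 4. Obese and lean libraries did not overlap, and all weight loss libraries lay below all obese libraries. The log2 change of P4hb in obese fat was 0.44 ± 0.11 (edgeR adjusted p = 0.0257, exact permutation p = 0.00794).

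Pdia3, the isomerase that works on glycoproteins held by calnexin and calreticulin, stood at 392, 322, 409, 348 and 275 CPM in lean replicates 1 to 5, 519, 512, 496, 612 and 361 CPM in obese replicates 1 to 5, and 455, 419, 479 and 415 CPM in weight loss replicates 1 to 4. Obese replicate 5 lay inside the lean range and the other 4 obese libraries above it. Its log2 change was 0.52 ± 0.14 (edgeR adjusted p = 0.0298, exact permutation p = 0.0238). Pdia4 did not pass, with 95.5 ± 13.4 CPM (SD, n = 5) in lean and 103 ± 22.0 CPM (SD, n = 5) in obese fat (log2 0.10 ± 0.14, edgeR adjusted p = 0.701). Pdia6 overlaps Atp6v1c2 and Pdia3 overlaps Catsper2 in the annotation. The lectin chaperones Calr and Canx, which bind the sugar of newly made glycoproteins, did not pass either. Calr was at 869.9 ± 35.8 CPM (SD, n = 5) in lean and 1048 ± 102 CPM (SD, n = 5) in obese fat with no overlap between libraries (log2 0.27 ± 0.10, edgeR adjusted p = 0.0934), and Canx stood at 191 to 378 CPM in lean and 258 to 398 CPM in obese libraries (log2 0.18 ± 0.17).

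**Figure D3:**
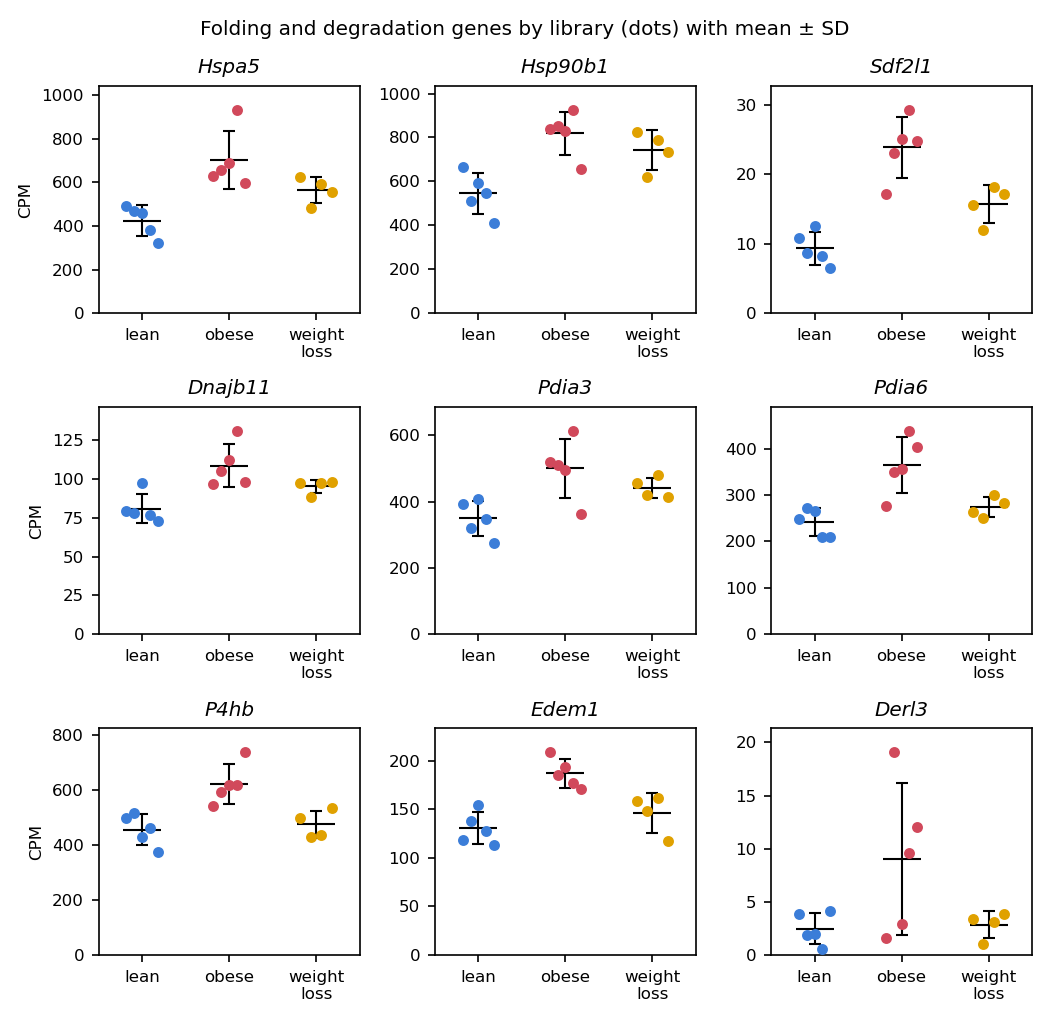
CPM per library (dots) with mean ± SD for 9 genes of folding and disposal; the groups are 5 lean, 5 obese and 4 weight loss libraries, and each panel has its own scale from 0. Obese libraries lie above all lean libraries for Hspa5, Sdf2l1, Pdia6, P4hb and Edem1, and the Derl3 panel shows 2 obese libraries at the lean level and 3 far above it.

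Among the 7 tested genes that remove misfolded protein, 1 rose. Edem1 encodes a mannosidase-like factor that hands misfolded glycoproteins over for disposal. Edem1 stood at 118, 138, 154, 128 and 113 CPM in lean replicates 1 to 5, 209, 185, 194, 177 and 171 CPM in obese replicates 1 to 5, and 159, 148, 162 and 117 CPM in weight loss replicates 1 to 4. Every obese library lay above every lean and every weight loss library. It rose 1.43-fold in obese fat, a log2 value of 0.52 ± 0.11 (edgeR adjusted p = 0.0117, exact permutation p = 0.00794). Sel1l, the scaffold of the disposal complex, stood at 124 to 155 CPM in lean and 151 to 184 CPM in obese libraries (log2 0.34 ± 0.12, edgeR adjusted p = 0.0873). Syvn1, its ubiquitin ligase HRD1, had a value of the opposite sign at 79.7 to 113 CPM in lean and 66.2 to 98.8 CPM in obese libraries (log2 -0.30 ± 0.14, edgeR adjusted p = 0.19). Neither passed, and Syvn1 overlaps Mrpl49 in the annotation.

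The derlins, membrane proteins of the same complex, had values of both signs, and none passed the test. Derl1 was at 349 ± 57.7 CPM (SD, n = 5) in lean and 281 ± 22.4 CPM (SD, n = 5) in obese fat (log2 -0.31 ± 0.12) and Derl2 at 53.5 to 73.4 CPM in lean and 59.7 to 85.1 CPM in obese libraries (log2 0.13 ± 0.15). Derl3, the derlin of secretory tissues, had the largest positive value of the list at 1.86 ± 0.63 without passing the test (edgeR adjusted p = 0.0751). Derl3 stood at 3.88, 1.92, 1.94, 0.603 and 4.11 CPM in lean replicates 1 to 5, 1.62, 19.1, 2.88, 9.63 and 12.0 CPM in obese replicates 1 to 5, and 3.39, 1.07, 3.12 and 3.90 CPM in weight loss replicates 1 to 4. The 3 obese libraries high in Derl3 were replicates 2, 4 and 5, the obese libraries richest in epididymal transcripts, and obese replicates 1 and 3 lay within the lean range. Lean replicate 1, with 3559 CPM of epididymal markers, was not high in Derl3. With the 4 richest libraries left out, the log2 value was 0.07. Herpud1, which brings ubiquitin ligases to the disposal complex, stood at 75.0 to 99.2 CPM in lean and 70.9 to 96.1 CPM in obese libraries (log2 -0.08 ± 0.11). The translocon subunits Sec61b and Sec61a1, part of the channel through which new proteins enter, had log2 values of 0.35 ± 0.14 and 0.26 ± 0.13 and did not pass. Sec61b stood at 33.4 to 56.4 CPM in lean and 44.2 to 61.9 CPM in obese libraries and Sec61a1 at 135 to 203 CPM in lean and 193 to 253 CPM in obese libraries, with overlap in both cases.

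None of the 3 sensors passed the test. Ern1 stood at 5.49, 3.19, 1.54, 3.82 and 3.05 CPM in lean replicates 1 to 5, 2.74, 3.71, 1.52, 2.98 and 1.66 CPM in obese replicates 1 to 5, and 2.31, 1.58, 0.407 and 2.56 CPM in weight loss replicates 1 to 4. All groups overlapped at this low level (log2 -0.43 ± 0.44 in obese against lean, edgeR adjusted p = 0.612). Eif2ak3 stood at 14.4, 12.1, 18.0, 11.1 and 11.1 CPM in lean replicates 1 to 5, 15.7, 13.9, 14.2, 16.0 and 16.7 CPM in obese replicates 1 to 5, and 11.2, 12.7, 25.8 and 6.94 CPM in weight loss replicates 1 to 4. The obese libraries fell inside the lean range, and 1 weight loss library lay above and another below all others (log2 0.20 ± 0.27, edgeR adjusted p = 0.71). Atf6 stood at 55.1, 48.0, 42.8, 49.7 and 34.5 CPM in lean replicates 1 to 5, 62.3, 58.9, 53.3, 67.1 and 49.5 CPM in obese replicates 1 to 5, and 67.1, 55.2, 62.8 and 55.4 CPM in weight loss replicates 1 to 4. Its obese libraries lay toward the top of the lean range or above it, with a log2 value of 0.34 ± 0.13 that did not pass (edgeR adjusted p = 0.114).

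Atf4 and Ddit3, the latter the gene of the transcription factor CHOP, belong to the PERK arm. The ATF4 protein is controlled largely at translation, which these data do not measure. Atf4 stood at 176, 179, 172, 211 and 226 CPM in lean replicates 1 to 5, 173, 195, 197, 194 and 177 CPM in obese replicates 1 to 5, and 201, 163, 165 and 199 CPM in weight loss replicates 1 to 4. The groups overlapped, with lean replicates 4 and 5 above all other libraries (log2 -0.04 ± 0.10, edgeR adjusted p = 0.855). Ddit3 stood at 47.9, 69.5, 49.1, 63.9 and 74.5 CPM in lean replicates 1 to 5, 40.9, 45.9, 55.7, 43.6 and 66.4 CPM in obese replicates 1 to 5, and 57.1, 40.7, 48.4 and 71.2 CPM in weight loss replicates 1 to 4. The groups overlapped here too, with a log2 value of -0.27 ± 0.18 (edgeR adjusted p = 0.394). Ddit3 overlaps Mars1 and Mbd6, so reads of these genes may be mixed in its count.

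Of the 4 tested targets of ATF4 and CHOP, none rose and 1 fell. Asns encodes asparagine synthetase. Asns stood at 118, 155, 178, 158 and 127 CPM in lean replicates 1 to 5, 95.8, 92.2, 106, 83.4 and 83.3 CPM in obese replicates 1 to 5, and 119, 144, 131 and 161 CPM in weight loss replicates 1 to 4. Every obese library lay below every lean library and below every weight loss library. It fell 1.60-fold in obese fat, from 147 ± 24.7 CPM (SD, n = 5) to 92.1 ± 9.40 CPM (SD, n = 5), a log2 value of -0.68 ± 0.13 (edgeR adjusted p = 0.00475, exact permutation p = 0.00794).

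Trib3 encodes a pseudokinase that feeds back on ATF4 and CHOP. Trib3 stood at 16.7, 23.6, 15.1, 14.9 and 20.3 CPM in lean replicates 1 to 5, 13.3, 16.1, 13.0, 9.84 and 12.4 CPM in obese replicates 1 to 5, and 19.2, 17.8, 21.8 and 18.2 CPM in weight loss replicates 1 to 4. Except for obese replicate 2, the obese libraries lay below all lean libraries, and all 5 lay below every weight loss library, without passing the test against lean fat (log2 -0.49 ± 0.16, edgeR adjusted p = 0.0706). Ppp1r15a, the phosphatase subunit GADD34 that restores translation, stood at 26.5 to 30.4 CPM in lean and 23.2 to 30.5 CPM in obese libraries (log2 -0.12 ± 0.12). Chac1, an enzyme that breaks down glutathione, stood at 3.42 to 7.77 CPM in lean and 4.26 to 9.59 CPM in obese libraries (log2 0.33 ± 0.28). Neither passed. The plot of sensors and targets by library shows these genes.

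**Figure D4:**
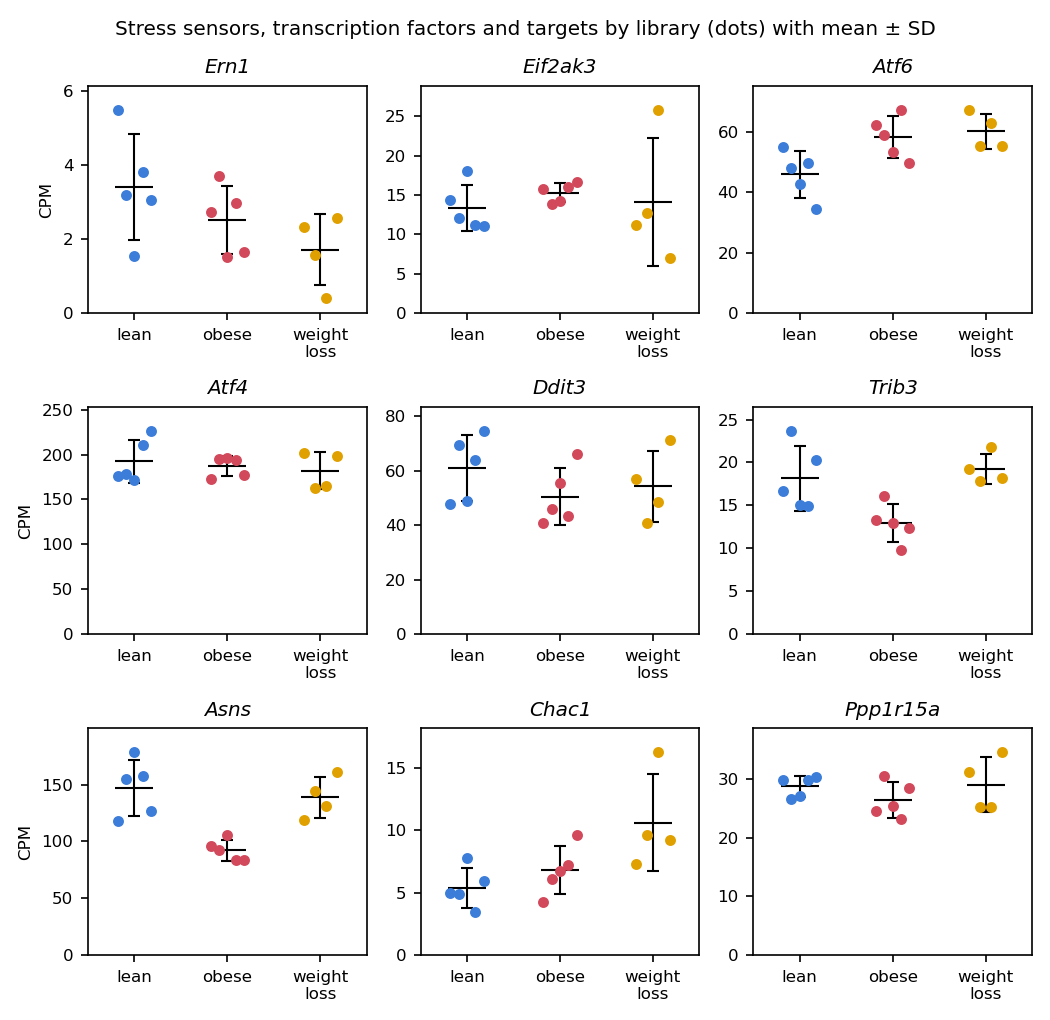
CPM per library (dots) with mean ± SD for the 3 sensors, 2 transcription factors and 4 targets of ATF4 and CHOP in 5 lean, 5 obese and 4 weight loss libraries, each panel on its own scale from 0. The obese Asns libraries, at 83.3 to 106 CPM, lie below all other libraries, while the groups overlap for Ern1, Eif2ak3, Atf4, Ddit3 and Ppp1r15a.

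Other genes of the pathway were counted from wider lists of 145 genes, of which 143 passed the filter. In obese against lean fat 19 of the 143 (13.3%) rose and none fell, beside 5.86% and 3.85% of all genes tested. The lists were chosen with earlier results of these data known, so these shares only describe them. The shares come from all 14 libraries, and calls in these lists without the 4 libraries richest in epididymal transcripts were not counted. The folding list stood at 20% and the translocation list at 17.1%, while the lists of the integrated stress response (9.76%), of sensors (8.33%) and of disposal (5%) lay nearer to the share over all genes. Of 35 further folding and oxidation genes 7 rose, the 3 with the smallest p being Serpinh1, Ppic and Calu. Serpinh1 encodes HSP47, the chaperone of collagen, and went from 405 ± 41.0 CPM (SD, n = 5) to 764 ± 80.8 CPM (SD, n = 5) (log2 0.91 ± 0.11, edgeR adjusted p = 0.000198). Ppic, a cyclophilin of the secretory pathway, had a log2 value of 0.90 ± 0.13 (edgeR adjusted p = 0.000876), and Calu, the calcium-binding protein calumenin, one of 0.93 ± 0.15 (edgeR adjusted p = 0.00158).

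Of 35 genes of translocation, signal peptide removal and N-glycosylation 6 rose, led by Ost4 (log2 0.70 ± 0.12) and Ostc (log2 0.62 ± 0.13), subunits of the oligosaccharyl transferase, and Srp9 (log2 0.71 ± 0.13), a subunit of the signal recognition particle. Of 41 tested genes of the integrated stress response 4 rose, namely Vldlr, a lipoprotein receptor (log2 0.85 ± 0.18), Slc1a4, an amino acid carrier (log2 0.84 ± 0.20), Eif2s1, the subunit of eIF2 that PERK phosphorylates (log2 0.62 ± 0.16), and Nupr1 (log2 0.39 ± 0.11). Of 20 further disposal genes 1 rose, the ubiquitin-conjugating enzyme Ube2j1 (log2 0.49 ± 0.10). Of 12 tested sensors and membrane transcription factors 1 rose, Creb3 (log2 0.46 ± 0.10). The edgeR adjusted p of these 9 genes lay between 0.00214 and 0.0313.

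Markers of other cells moved along with obesity. Summed macrophage markers (11 genes) were at 427 to 931 CPM in lean and 968 to 1476 CPM in obese libraries, without overlap, and 8 of the 11 rose. Summed fibroblast markers (8 genes) ran from 1146 to 2875 CPM in lean and from 2116 to 3766 CPM in obese libraries, and 1 of the 8 rose. Markers of plasma cells, which have much endoplasmic reticulum, summed to 147 to 209.6 CPM in lean and 180.2 to 201 CPM in obese libraries over 9 genes, of which Txndc5, itself a folding enzyme, made up most. Without Txndc5 the sum was 30.6 to 56.8 CPM in lean and 51.8 to 72.6 CPM in obese libraries, which overlapped. Mzb1, Igkc and Ighm were listed at 0. None of the 6 tested plasma cell markers passed, 5 had positive values, and their median log2 value was 0.57. Tnfrsf17 did not overlap, at 0.134 to 0.284 CPM in lean and 0.377 to 1.13 CPM in obese libraries (edgeR adjusted p = 0.0529).

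Summed markers of pancreatic acinar cells (7 genes) did not overlap either, at 4.86 to 9.43 CPM in lean and 10.9 to 27.8 CPM in obese libraries. That sum was almost all Cela1, an elastase and the only one tested, which rose (log2 1.48), and Pnlip and Amy2a5 were listed at 0 in every lean and obese library. Of 6 mesothelial markers 1 rose, Msln, and of 6 endothelial markers 1 fell, Vwf. The part of these cell types in the rise of folding genes was not tested.

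Leaving out the 4 libraries richest in epididymal transcripts left 4 lean, 2 obese and 4 weight loss libraries, and no gene of the list then passed the test. The log2 values without them were 1.24 for Sdf2l1 (edgeR adjusted p = 0.0734), 0.69 for Hspa5, 0.69 for Hsp90b1, 0.59 for Edem1, 0.58 for Pdia3 and -0.61 for Asns. Those of Pdia6, P4hb and Dnajb11 were 0.40, 0.38 and 0.37. Over all genes the calls went from 1477 to 125 in that fit. Of the 2 obese libraries in it, replicate 1 held 11.3 CPM of epididymal markers and replicate 3 still held 475 CPM. In obese replicates 1 and 3 alone, 9 genes of the list lay above every lean library, namely Hspa5, Hsp90b1, Sdf2l1, Pdia3, Pdia6, P4hb, Calr, Edem1 and Sel1l, and 4 lay below every lean library, namely Asns, Trib3, Ppp1r15a and Syvn1. These are 27.3% and 12.1% of the 33, beside 12.5% above and 8.34% below among all genes tested. With the sum of the log2 levels of the epididymal markers as a covariate, Sdf2l1, Hspa5 and Edem1 still rose (log2 1.21, 0.67 and 0.62). Their edgeR adjusted p was 0.0111, 0.0448 and 0.0175. The other 6 did not pass in that fit, with log2 values of 0.54 for Hsp90b1, 0.53 for Pdia3, 0.43 for Dnajb11, 0.48 for Pdia6, 0.34 for P4hb and -0.55 for Asns, and edgeR adjusted p from 0.0502 for Asns to 0.172 for P4hb. The values of Pdia3 and Dnajb11 were as large as without the covariate, and those of the other 4 were smaller. With the log2 of the summed CPM of these markers as the covariate instead, Hsp90b1 and Asns passed as well (edgeR adjusted p = 0.0445 and 0.0231).

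**Figure D5:**
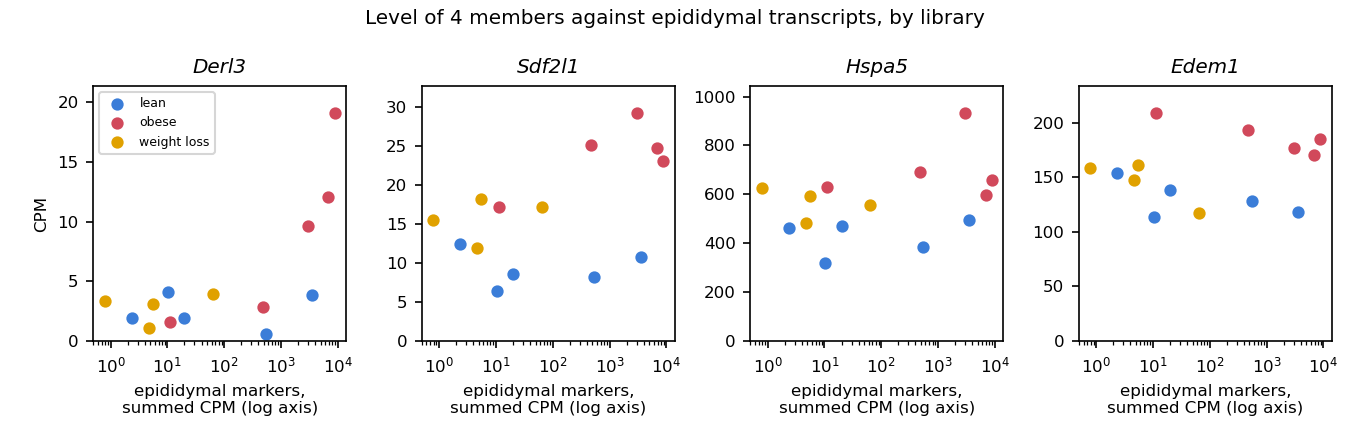
CPM of Derl3, Sdf2l1, Hspa5 and Edem1 (vertical axes, from 0) against the summed CPM of 23 epididymal markers (horizontal, log axis) in the 14 libraries. For Derl3 only the obese libraries with 3028 CPM or more of epididymal markers stand above the rest. For Sdf2l1, Hspa5 and Edem1 the other obese libraries, replicates 1 and 3, also lie above all lean libraries. Replicate 1 holds 11.3 CPM of these markers and replicate 3 holds 475 CPM.

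The second comparison asked what 1 week of chow changed in fat that had become obese. It shares the 5 obese libraries with the first. Only Asns passed the test: it rose to 139 ± 17.9 CPM (SD, n = 4) from 92.1 ± 9.40 CPM (SD, n = 5), 1.51-fold or a log2 value of 0.59 ± 0.13 (edgeR adjusted p = 0.0408, p = 0.00794 by the exact permutation test, the lowest that 126 arrangements can give). Every weight loss library lay above every obese library. The call was near the threshold: it held under 11 of 27 alternatives, and in 4 of the 14 fits that left out 1 library each (edgeR adjusted p up to 0.111), those without lean replicate 1, 3 or 5 or weight loss replicate 1. Over all genes tested 1.62% changed, 0.736% upward and 0.881% downward, so 1 of 33 (3.03%) is 1 call beside that background.

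None of the folding genes that rose in obese fat fell after weight loss by the test. Their log2 values were negative for all 8, from -0.60 for Sdf2l1 (± 0.20, edgeR adjusted p = 0.175) through -0.41 for Pdia6, -0.39 for P4hb, -0.35 for Edem1, -0.31 for Hspa5, -0.19 for Dnajb11 and -0.18 for Pdia3 to -0.14 for Hsp90b1. At an unadjusted p under 0.05 there were 9 of the 33 genes (27.3%), beside 14.3% of all genes tested. Of these 8 they included Sdf2l1, Pdia6, P4hb and Edem1. DESeq2 called P4hb lower, among 691 genes in all. With the 4 libraries richest in epididymal RNA left out, the lowest edgeR adjusted p of the 8 was 0.706, for Edem1. The signs and p of these 8 are not independent of the first comparison, since the obese libraries are the same. Weight loss and obese libraries did not overlap for Edem1 and P4hb, which did not pass (edgeR adjusted p = 0.183 and 0.144). With Asns and Trib3 these were 4 of the 33 genes (12.1%), beside 6.65% of all genes tested. Over the 33 genes 13 values were positive and 20 negative, with a median log2 value of -0.14 beside 0.02 over all genes. Without the 4 libraries richest in epididymal RNA, 16 were positive and 17 negative, with a median of -0.02 beside 0.03 over all genes.

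The 4 targets of ATF4 and CHOP had positive values against the shared obese libraries, and 1 of them, Asns, passed. The wider list of the integrated stress response and ATF4 targets had 12 positive and 29 negative values of 41, with a median log2 value of -0.13, and over all genes 52.9% were positive. Trib3 was at 19.2 ± 1.79 CPM (SD, n = 4) against 12.9 ± 2.25 CPM (SD, n = 5) with no overlap (log2 0.57 ± 0.17, edgeR adjusted p = 0.116). Chac1 had a log2 value of 0.64 ± 0.29 and Ppp1r15a one of 0.14 ± 0.13, and neither passed. Atf4 and Ddit3 themselves had -0.04 ± 0.11 and 0.11 ± 0.19. Derl3 had a log2 value of -1.66 ± 0.67 (edgeR adjusted p = 0.27), and with the 4 libraries richest in epididymal RNA left out it was 0.35. The value of Asns without them was 0.46, which did not pass (edgeR adjusted p = 0.733). Of the 143 wider genes 1 changed: Serpinh1 fell to 496 ± 58.8 CPM (SD, n = 4) (log2 -0.62 ± 0.12, edgeR adjusted p = 0.0133).

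The third comparison asked whether fat after weight loss still differed from fat that had never been obese. No gene of the list passed, of 33, and 0.0329% of all genes tested did, all of them upward. At an unadjusted p under 0.05 there were 7 of the 33 (21.2%) beside 11.4% of all genes tested. DESeq2 called 1 of the 33, Sdf2l1, and 261 genes in all. Sdf2l1 was at 15.7 ± 2.76 CPM (SD, n = 4) after weight loss beside 9.32 CPM in lean fat (log2 0.75 ± 0.20, edgeR adjusted p = 0.178). Hsp90b1 had a log2 value of 0.44 ± 0.14 and Hspa5 one of 0.41 ± 0.15. Weight loss and lean libraries did not overlap for Atf6 (log2 0.39 ± 0.14, edgeR adjusted p = 0.307) and Pdia3 (log2 0.34 ± 0.15, edgeR adjusted p = 0.404). These were 2 of the 33 (6.06%), beside 2.29% of all genes tested.

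Chac1 and Ern1 had the values farthest from 0 in this comparison. Chac1 was at 5.41 ± 1.60 CPM (SD, n = 5) in lean fat and 10.6 ± 3.90 CPM (SD, n = 4) after weight loss, where 1 library stood at 16.3 CPM (log2 0.97 ± 0.29, edgeR adjusted p = 0.234). Ern1 had a log2 value of -0.997 ± 0.49 at levels of 3.42 and 1.72 CPM (edgeR adjusted p = 0.454). Asns differed from lean fat by less than the spread between libraries (log2 -0.08 ± 0.14, edgeR adjusted p = 0.847). Of the 33 values 25 were positive and 8 negative, with a median log2 value of 0.16 beside 0.00 over all genes. Without the 4 libraries richest in epididymal RNA, 26 were positive and 7 negative, with a median of 0.13 beside 0.02 over all genes.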

How the data were processed

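Expression was measured by sequencing of polyadenylated RNA in 15 libraries of perigonadal fat. The table deposited by the authors holds raw expected counts for each Entrez ID, of which 34.8% were not whole numbers, on 36172 lines for 35794 IDs (74 IDs had several lines, with reads on at most 1). The build was mm10 per the submitters' processing notes. How reads were aligned and counted, with which annotation and strand setting, is not given in the sources used here. Symbols were matched for 32919 IDs through a RefSeq gene table.

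Counts were rounded. Libraries under 1000000 counts were left out, which removed weight loss replicate 5 (230 counts). Genes were filtered by edgeR's filterByExpr by group, scaled with TMM factors and fitted in 1 model of 3 groups with edgeR 4.0.16 (glmQLFit, glmQLFTest; R 4.3.3), two-sided, with Benjamini-Hochberg adjustment over 15208 genes and a threshold of 0.05. The standard error was taken as the size of the log2 fold change divided by the root of the F statistic. Exact permutation tests used log2(CPM + 0.01) for genes called by that test. Levels per kilobase used the union of exons in GENCODE M21. The procedure was first tested on simulated data made from these libraries.

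The members and lists were chosen with earlier results of these data known. Genes with values in every library are those called in at least 1 comparison and Hspa5, Hsp90b1, Xbp1, Atf4, Ddit3, Trib3, Ern1, Eif2ak3 and Atf6, and Derl3 was added after its values were seen; of each wider list up to 3 called genes with the smallest p are named, and Nupr1, the fourth of its list, was added after its value was seen. Of the wider lists Nars1 was not matched to an ID, and Ern2 and Fgf21 did not pass the filter. Marker lists of other cell types were summed per library: mesothelial markers ran from 179 to 411 CPM in lean, 294 to 468 CPM in obese and 278 to 418 CPM in weight loss libraries, and endothelial markers from 609 to 915 CPM, 608 to 846 CPM and 533 to 1017 CPM. Alternatives were other scalings, filters, DESeq2 1.42.0, limma-voom (limma 3.58.1), fits of both groups alone, the replicate number as a block, the epididymal level as a covariate, the libraries richest in it left out, weight loss replicate 5 included and each library left out. The epididymal covariate was the sum over the markers of log2(CPM + 0.5). A second covariate, the log2 of their summed CPM, and the edgeR setting legacy=FALSE were chosen after seeing the data. Plotting used matplotlib 3.10.9 and pandas 2.3.3 in Python 3.11.15.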

Additional observations from a re-analysis of the deposited data

Results flagged for a closer look

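The following libraries stood apart from the rest of their group, measured as the gap to the nearest library over the range of the group and set against Dixon's 95% critical value. There were 8 such cases among 99 groups of gene and diet, and chance alone gives about 1 in 20. Hspa5 in obese replicate 4 was at 932 CPM, with the other obese libraries at 599 to 689.9 CPM. Dnajb11 was at 97.7 CPM in lean replicate 3, above 73.0 to 79.6 CPM in the others, and at 88.8 CPM in weight loss replicate 2, below 97.3 to 97.9 CPM. Dnajb9, a J-domain partner of BiP, was at 47.7 CPM in weight loss replicate 3, against at most 17.2 CPM in the others. Syvn1 was at 106 CPM and Sec61b at 36.8 CPM in weight loss replicate 1, against at most 77.1 CPM for Syvn1 and at least 46.0 CPM for Sec61b in the others. Derl2 was at 85.1 CPM in obese replicate 3 and at 80.9 CPM in weight loss replicate 4, against at most 66.2 and 54.5 CPM in the others of each group.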

How the results depend on the processing

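In all, 27 alternatives were tried. Among them the calls in obese against lean fat held for Sdf2l1, Hspa5 and Edem1 in 26, Asns in 25, Pdia6 and Hsp90b1 in 24, Dnajb11 in 18, and P4hb and Pdia3 in 16, and the sign of each was the same in all 27. The count of 8 genes higher was 3 with the epididymal covariate and 4 with the second covariate, the log2 of the summed CPM. It was 0 without the 4 libraries richest in epididymal transcripts and 4 with weight loss replicate 5 included. When each library was left out it was 5 to 10, the lowest without lean replicate 4 or 5 or obese replicate 3 or 4. The count of 1 lower was 2 with DESeq2 (Trib3 added), and 0 with the covariate and without the 4 libraries. The 1477 calls over all genes were 2260 with DESeq2, 569 with the covariate, 125 without the 4 libraries, and 849 to 1673 with each library left out.

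In weight loss against obese fat the call of Asns held in 11 of 27 alternatives. The count of 1 higher was 2 with DESeq2 (Trib3 added), 0 with no filter on low counts, with both forms of the covariate, without the 4 libraries and with weight loss replicate 5 included, and 0 to 1 when each library was left out. DESeq2 called 1 lower (P4hb). The 246 calls over all genes were 691 with DESeq2, and 27 and 31 with the first and the second covariate. They were 20 without the 4 libraries, and 141 to 265 with each library left out. In weight loss against lean fat DESeq2 called 1 gene of the list higher. The 5 calls over all genes were 261 with DESeq2, 1 with limma-voom and 0 with both groups fitted alone. They were 3 and 0 with the first and the second covariate, and 0 without the 4 libraries. With weight loss replicate 5 included they were 10, and with each library left out 0 to 130, the highest without weight loss replicate 4. The cause of these shifts was not tested.

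Groups share replicate numbers in the labels, and the values gave no clear sign that the numbers pair the samples. Deviations of same-numbered libraries correlated over 0.1 in 4 of 13 pairs (median 9.94e-05), and 3 of 14 libraries correlated best with their own number. With so few libraries per group these correlations cannot exclude a pairing. With the replicate number as a block, 8 genes rose and 1 fell in obese against lean fat (Atf6 in, P4hb out), 0 rose in weight loss against obese fat, and 2 genes over all were called in weight loss against lean fat.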
